A study of Homo sapiens with 4 samples.

Results

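The paclitaxel-resistant cultures SW1736-PTX and 8505C-PTX were compared with each other, with 1 mRNA library each, to describe which genes still differed between the cell lines once both grew in the drug. All 26485 gene names in the deposited tables were considered, and the 13986 names above 0.5 FPKM in at least 1 of the 2 libraries were compared. FPKM is the number of aligned fragments scaled to the length of the gene and the depth of the library. SW1736 and 8505C are established human cell lines of anaplastic thyroid cancer (ATC), an aggressive and poorly differentiated thyroid tumor. SW1736-PTX and 8505C-PTX cells had been selected over 6 months in steps of paclitaxel between 1 nM and 1.5 µM, and the latter dose was kept afterwards. The SW1736 wt and 8505C wt cells, with 1 library each, are the paclitaxel-sensitive parental lines and are given as reference. Whether a resistant culture was a clone or a mixed population is not given in the sources used here.

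Paclitaxel is a taxane that binds beta-tubulin and stabilizes microtubules, so that dividing cells arrest in mitosis. Cells under long selection with a taxane often raise ABCB1, an efflux pump of the ATP-binding cassette family, and can change the tubulin isotypes they use. Cultures selected from different lines may share such changes and keep other differences in matrix, adhesion and signaling genes.

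Coverage divided by FPKM gave a depth of 57.9 M reads of 75 bp in SW1736-PTX and 53.6 M in 8505C-PTX, against 48.9 M and 43.5 M in SW1736 wt and 8505C wt. An FPKM of 0.5 on 1 kb then stands for 29.0 and 26.8 reads in the PTX libraries, and 3 reads on 1 kb for 0.0518 and 0.0560 FPKM. These figures cover counting error only. With 1 library per group there was no spread between cultures to set a difference against, so no test, error or p-value is given. A name was called when log2((SW1736-PTX + 0.1)/(8505C-PTX + 0.1)) was above 1.5 or below -1.5. This log2 difference understates the difference of low genes, and no ratio is given where a library is listed at 0.

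The library labelled SW1736-PTX was closer to 8505C wt than to its own parental line. It differed beyond 1.5 from SW1736 wt in 25.9% of 14202 names and from 8505C wt in 20.4% of 13824 names. The library labelled 8505C-PTX differed from 8505C wt in 20.9% and from SW1736 wt in 27.8%. Of 148 names above 5 FPKM in 8505C wt and below 0.5 in SW1736 wt, 113 passed 5 FPKM in the SW1736-PTX library and 111 in 8505C-PTX. Of 145 names with the reverse pattern, 11 passed 5 FPKM in the SW1736-PTX library and 12 in 8505C-PTX. Among thyroid transcription factors, NKX2-1 was at 36.3 FPKM in SW1736-PTX, 39.0 in 8505C-PTX and 30.5 in 8505C wt and was listed at 0 in SW1736 wt, whereas PAX8 reached 38.2 FPKM in SW1736 wt and at most 0.206 elsewhere. Some names went the other way: dystrophin (DMD) was at 11.5 FPKM in SW1736-PTX and 13.48 in its parental line, against 0.181 and 0.217 in 8505C-PTX and 8505C wt. The origin of the culture labelled SW1736-PTX was not tested, and its name is used below as the label gives it.

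The labelled tissue was checked on marker genes. The thyroid differentiation genes TSHR and SLC5A5 were listed at 0 in all 4 libraries, and TG, the thyroglobulin gene, was at most 0.00586 FPKM. The epithelial keratins KRT8 and KRT18 and the mesenchymal filament gene VIM were high in both PTX libraries (973 and 974, 1437 and 1240, and 1740 and 1321 FPKM). The epithelial adhesion genes CDH1 and EPCAM stayed at or below 0.0720 FPKM in both. The pan-leukocyte gene PTPRC was at most 0.0197 FPKM in any library, and CD3E and MS4A1 were listed at 0 in both PTX libraries. The monocyte marker CD14 was at 0.707 FPKM in SW1736-PTX and 4.50 in 8505C-PTX. Of 6 fibroblast markers, only PDGFRB was above 0.5 FPKM in the PTX libraries (6.08 in SW1736-PTX, 6.49 in 8505C-PTX). Of 5 endothelial markers, 2 were above 0.5 FPKM in 8505C-PTX and none in SW1736-PTX: CDH5 (0.225 in SW1736-PTX, 4.53 in 8505C-PTX) and TIE1 (0.135 and 8.25). VWF was listed at 0 in 8505C-PTX, and CDH5 was at 55.9 FPKM in 8505C wt.

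Of the 13986 names compared, 1090 were called (7.79%), 572 higher in SW1736-PTX (4.09%) and 518 higher in 8505C-PTX (3.7%). The median log2 difference was 0.01, and 85.2% of names lay within 1. Between the wt libraries, 2375 of 13457 names were called (17.6%), 1335 higher in SW1736 wt (9.92%) and 1040 higher in 8505C wt (7.73%). The median absolute log2 difference was 0.33 in the PTX pair and 0.56 in the wt pair. Of the calls, 48 names were listed at 0 in 8505C-PTX and 64 in SW1736-PTX. Above 5 FPKM in the higher library there were 231 and 210 calls, and above 100 FPKM 16 and 15. Protein-coding genes were called in 6.96% of 12340 names, long noncoding RNA genes in 11.6% of 647 and small RNA genes in 19.1% of 419. Just inside the threshold were SFRP1 (1.502) and FAM174B (-1.502), and just outside it SHC3 (1.499) and FAM46A (-1.498).

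**Figure D1:**
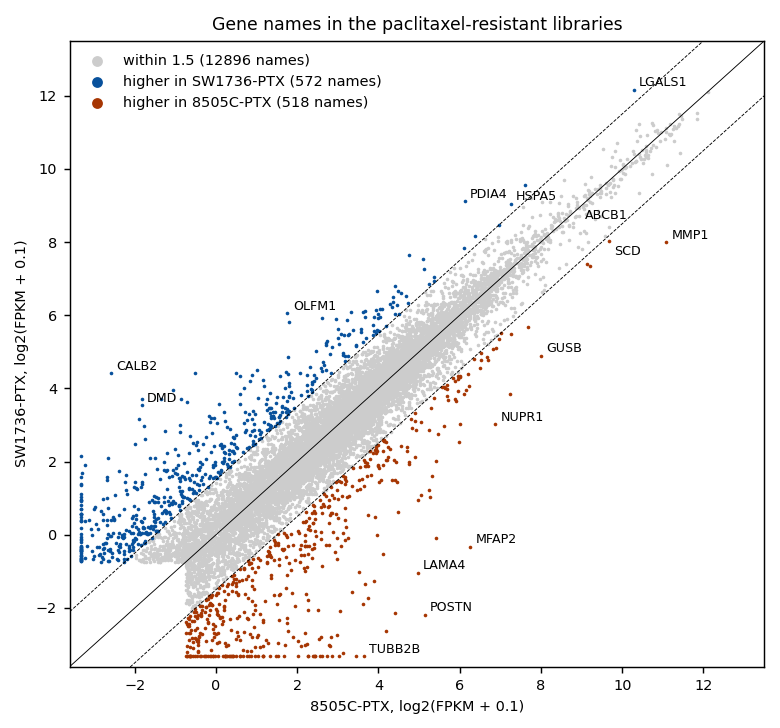
Each point is 1 of the 13986 gene names compared, with log2(FPKM + 0.1) in 8505C-PTX on the x axis and in SW1736-PTX on the y axis. The 572 names above the upper dashed line and the 518 below the lower one differ by more than 1.5, and ABCB1 lies between the lines.

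Of 54 genes and transcription factors in the study's tables, 41 were compared and 14 were called (34.1%, beside 7.79% of all names), 8 higher in SW1736-PTX and 6 in 8505C-PTX. The study drew up those tables on these libraries, so they are not independent evidence. ABCB1 (chromosome 7, 87503863 to 87713323, hg38) was at 302 FPKM in SW1736-PTX and 497 in 8505C-PTX, a log2 difference of -0.72 that was not called. SLC25A6, a mitochondrial ADP/ATP carrier, was at 1068 and 907 FPKM, and the surface glycoprotein gene CD99 at 438 and 345. The paper lists both at 0 FPKM in the wt lines. With repeated names summed, SLC25A6 was at 469 and 387 FPKM in SW1736 wt and 8505C wt, and CD99 at 160 and 201. PIEZO2, a mechanosensitive ion channel gene, was at 30.4 and 29.0 FPKM in SW1736-PTX and 8505C-PTX, and ALPPL2, an alkaline phosphatase gene, at 37.5 and 36.6. The stress-response factor NUPR1 differed, with 7.99 FPKM in SW1736-PTX and 117 in 8505C-PTX (log2 difference -3.86).

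The largest difference among genes higher in SW1736-PTX and above 5 FPKM was that of a calcium-binding protein gene. CALB2, which encodes calretinin, was at 21.2 FPKM in SW1736-PTX and 0.0665 in 8505C-PTX, with 1.78 in SW1736 wt and 0 in 8505C wt. Its 8505C-PTX level is close to that of 3 reads on 1 kb. The ratio of the FPKM values was 319-fold. DMD had a log2 difference of 5.37. GABBR2, a subunit of the GABA-B receptor, was at 21.3 and 0.602 FPKM in the PTX libraries and at 4.71 and 0.268 in SW1736 wt and 8505C wt. SULF2, an extracellular heparan sulfatase, was at 5.45 and 0.152 FPKM in the PTX libraries and at 5.93 and 0 in their parental lines. For these 4 genes, SW1736-PTX had the level on the side of SW1736 wt.

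Other genes higher in SW1736-PTX were low in both wt lines or were on in 8505C wt. The secreted olfactomedin gene OLFM1 was at 66.2 FPKM in SW1736-PTX and 3.29 in 8505C-PTX, and at 0 and 0.408 in SW1736 wt and 8505C wt. NRCAM, a neuronal adhesion molecule, was at 8.81 and 0.167 FPKM, with 0 and 0.833 in the wt lines. The long noncoding RNA FENDRR was at 13.1 and 0.292 FPKM, with 0.249 and 1.21 in the wt lines. BEX1, a small signaling adaptor, was at 56.5 FPKM in SW1736-PTX and 43.9 in 8505C wt, but only at 3.37 in 8505C-PTX and 0 in SW1736 wt. CDCP1, a transmembrane substrate of Src kinases, was at 15.3 and 8.86 FPKM in SW1736 wt and 8505C wt and at 6.00 in SW1736-PTX, and was low in 8505C-PTX, with a log2 difference of 4.35. Thus CDCP1 was low in 1 of the 4 libraries, while BEX1 was high in 1 library of each line.

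The largest difference among genes higher in 8505C-PTX was that of a secreted matrix protein. Periostin (POSTN) was at 0.119 FPKM in SW1736-PTX and 35.1 in 8505C-PTX, a log2 difference of -7.32, with 2.17 and 1.79 in SW1736 wt and 8505C wt. MFAP2, a microfibril protein gene, was 109-fold higher, at 76.3 FPKM in 8505C-PTX, with 0.637 and 9.82 in the wt lines. LAMA4, a laminin chain of basement membranes, was at 0.387 FPKM in SW1736-PTX and 80.2-fold higher in 8505C-PTX, although both wt lines expressed it (32.9 and 9.13). MAMDC2 was at 0.0620 and 18.0 FPKM, with 9.19 and 4.06 in the wt lines. POSTN, MFAP2 and MAMDC2 were highest in 8505C-PTX of all libraries, and POSTN, LAMA4 and MAMDC2 were lowest in SW1736-PTX.

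Of the other names at this end, several were listed at 0 in SW1736-PTX. The beta-tubulin gene TUBB2B (chromosome 6, 3224261 to 3227734) was listed at 0 in both SW1736 libraries, with 12.4 FPKM in 8505C-PTX and 19.1 in 8505C wt. Its close neighbor and paralog TUBB2A was at 37.6 and 33.4 FPKM in SW1736-PTX and 8505C-PTX, and reads of such paralogs can be shared. The amino-acid transporter gene SLC6A15 had the same pattern as TUBB2B, with 10.9 FPKM in 8505C-PTX and 5.82 in 8505C wt. MEST, a gene expressed from the paternal allele, was at 0.00653 FPKM in SW1736-PTX and 8.69 in 8505C-PTX, with 11.8 in SW1736 wt. TCN2, a vitamin B12 carrier, was at 0.0222 and 6.91 FPKM. The complement gene C4A (listed at 0, and at 6.05 FPKM in 8505C-PTX) has the near-identical copy C4B, so its value is uncertain.

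**Figure D2:**
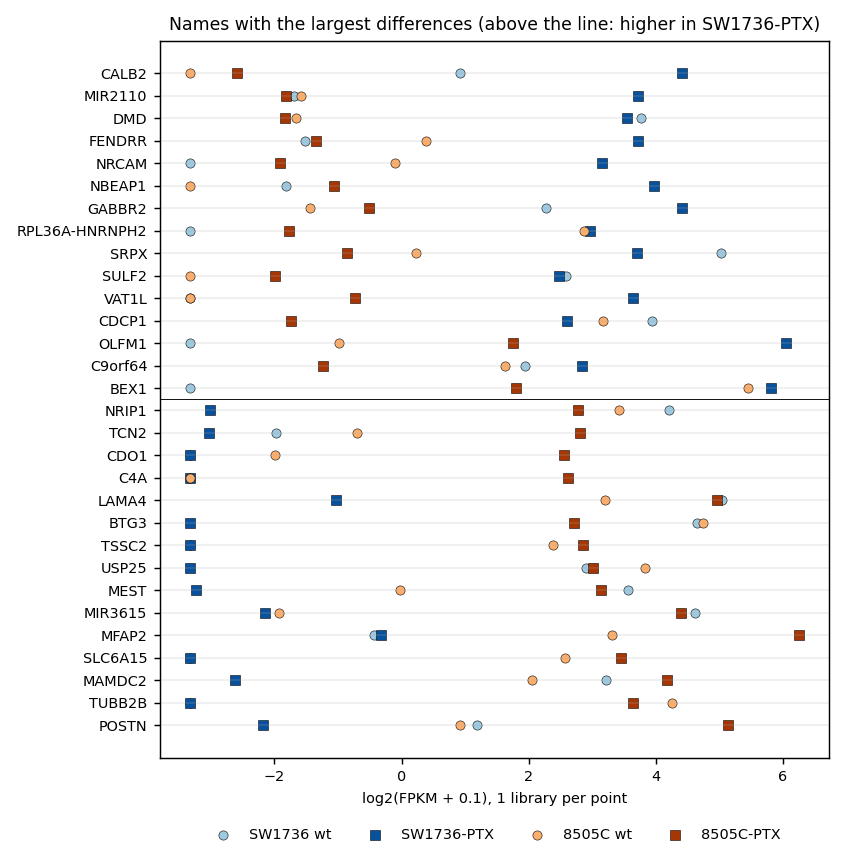
Rows are the 30 gene names with the largest differences among those above 5 FPKM, 15 in each direction, and each point is 1 library, with log2(FPKM + 0.1) on the x axis. The leftmost points are names listed at 0, such as TUBB2B in both SW1736 libraries; DMD lies near its own parental line in both cultures.

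Some of these names lie inside other genes. MIR2110 (75 bp; log2 difference 5.53) lies in CCDC186 and MIR3615 (87 bp; 0.126 FPKM in SW1736-PTX and 24.3 in its parental line) in SLC9A3R1, each on the same strand, and the host genes had close levels in SW1736-PTX and 8505C-PTX (3.50 and 3.43 FPKM, and 32.8 and 31.4). The readthrough name RPL36A-HNRNPH2 (7.75 and 0.193 FPKM) overlaps RPL36A (452 and 421) and HNRNPH2 (27.9 and 30.8). Fragments on such names can be assigned to either feature, so their values are uncertain.

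By abundance, the most prominent call was LGALS1, which encodes the carbohydrate-binding galectin-1, at 4568 FPKM in SW1736-PTX and 1248 in 8505C-PTX. SW1736 wt and 8505C wt were at 1239 and 1032 FPKM, so that SW1736-PTX was the highest. RAC2, a small GTPase gene, was at 289 and 82.6 FPKM. SFRP1, a secreted Wnt antagonist, was at 353 and 125 FPKM, with 0 and 127 in SW1736 wt and 8505C wt. The metastasis suppressor gene KISS1 was at 227 and 68.8 FPKM, with 0.340 and 366 in the wt lines. SURF4, a cargo receptor of the endoplasmic reticulum, was at 154 FPKM in SW1736-PTX, as in SW1736 wt (151), and at 34.9 in 8505C-PTX.

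In 8505C-PTX the most abundant call was MMP1, the interstitial collagenase, at 2173 FPKM against 254 in SW1736-PTX. The gene was silent (0) in SW1736 wt and stood at 2629.6 FPKM in 8505C wt. SCD, which makes monounsaturated fatty acids, was at 819 and 262 FPKM in 8505C-PTX and SW1736-PTX, and CD24, a surface glycoprotein gene, at 592 and 161. The fibulin gene EFEMP1 was at 559 FPKM in 8505C-PTX, 170 in SW1736-PTX and 450 in SW1736 wt, but only 8.03 in 8505C wt. The lysosomal enzyme gene GUSB was at 255 FPKM in 8505C-PTX and between 16.5 and 29.4 in the other libraries. The tissue plasminogen activator gene PLAT was at 207 and 51.1 FPKM, and TIMP3, an inhibitor of matrix metalloproteinases, at 150 and 14.4.

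The endoplasmic reticulum chaperones HSPA5 and PDIA4 were among the 10 most abundant genes higher in SW1736-PTX. HSPA5 (BiP) holds unfolded proteins and PDIA4 is a disulfide isomerase. HSPA5 was at 529 FPKM in SW1736-PTX, 153 in 8505C-PTX, and 237 in each wt line. PDIA4 was at 554 and 69.5 FPKM, with 146 and 97.1 in SW1736 wt and 8505C wt. A list of 19 chaperone and unfolded-protein-response genes was then drawn up, after the values were seen. Of these, 3 were called higher in SW1736-PTX and none in 8505C-PTX, beside 4.09% and 3.7% of all names, and 2 of the 3 are HSPA5 and PDIA4, for which the list was drawn up. A difference above 0 was found in 17, beside 50.5% of all names, and their median was 0.77, beside 0.01 over all names compared. The third call was CRELD2, a secreted stress protein gene, at 45.7 and 15.3 FPKM. HSP90B1 (617 and 362 FPKM), CANX (410 and 220) and MANF (157 and 58.0) did not reach the threshold, and CALR (514 and 472), XBP1 (52.1 and 63.0) and EDEM1 (7.62 and 11.6) were near or below equal levels. HSPA5, PDIA4 and CRELD2 lie in parts of chromosomes 9, 7 and 22, described below, in which neighboring names were also higher in SW1736-PTX. What those regions contributed to the result was not tested.

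The promoters of HSPA5 and CRELD2 are shown because the endoplasmic reticulum stress element, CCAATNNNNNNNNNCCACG, is a known feature of such promoters. The sequences are from RefSeq (GRCh38.p14), 5′ to 3′ on the strand of the gene, and capitals mark a match to the element on either strand. The window searched was the 250 bases before the RefSeq start, and the bases that overlap the gene's row in the deposited tables are left out of what is shown. The sequences shown lie at chr9:125241388-125241593 (HSPA5, minus strand) and chr22:49918384-49918629 (CRELD2, plus strand).
HSPA5: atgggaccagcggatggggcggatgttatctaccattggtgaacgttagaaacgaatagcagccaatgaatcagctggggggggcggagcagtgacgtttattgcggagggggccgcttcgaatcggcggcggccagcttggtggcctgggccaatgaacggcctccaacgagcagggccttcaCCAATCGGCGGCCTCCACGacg
CRELD2: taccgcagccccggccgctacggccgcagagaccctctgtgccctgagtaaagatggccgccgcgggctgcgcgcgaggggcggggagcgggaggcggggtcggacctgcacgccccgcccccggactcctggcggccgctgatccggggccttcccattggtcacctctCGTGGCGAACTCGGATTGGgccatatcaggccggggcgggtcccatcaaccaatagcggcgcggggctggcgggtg
The HSPA5 window held 1 match, the CRELD2 window 1 on the opposite strand and neither of the 2 PDIA4 windows any. Of the PDIA4 windows, 50 bases of 1 and none of the other lie outside the gene's row in the tables, so they are not shown. The element was found in 26 of 35116 promoter windows of this length (0.0740%). Of the 17 listed genes that have a window, 7 held it, among them HSP90B1, CALR, CANX, PDIA6 and XBP1, which were not called. The first count is of windows and the second of genes. The listed genes are of a kind known for the element, so the higher share among them is no result of these data.

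The calls were then read beside the differences between the parental lines. Of the 572 names higher in SW1736-PTX, 21.5% were also called higher in SW1736 wt, 66 (11.5%) were higher in 8505C wt, 182 (31.8%) differed by at most 1.5 between the wt lines and 201 (35.1%) were not above 0.5 FPKM in either wt library. For the 518 names higher in 8505C-PTX, these counts were 104 higher in 8505C wt, 83 higher in SW1736 wt, 148 within 1.5 and 183 low in both. In the other direction, 1335 names were higher in SW1736 wt and 921 of them were compared in the PTX pair. Of these 921, 13.4% were higher in SW1736-PTX, 83 (9.01%) were higher in 8505C-PTX and 715 (77.6%) were within 1.5. Of the 951 names higher in 8505C wt and compared, 104 (10.9%) kept the direction, 66 (6.94%) had the opposite one and 781 (82.1%) were within 1.5.

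Names with opposite differences in the wt and PTX pairs included BEX1, described above, and ADGRL2, an adhesion G protein-coupled receptor, which was at 22.6 FPKM in SW1736-PTX and 1.91 in 8505C-PTX, with 0 and 2.80 in the respective parental lines. TNFSF10, which encodes the death ligand TRAIL, was at 0.398 FPKM in SW1736-PTX and 11.3 in 8505C-PTX, with 4.78 and 0.218 in the respective parental lines. TMLHE, an enzyme of carnitine synthesis, was listed at 0 in SW1736-PTX and at 4.72 FPKM in 8505C-PTX, with 4.43 and 0.0155 in the parental lines. RGPD5 (0 in SW1736-PTX and 8505C wt, 5.33 FPKM in 8505C-PTX and 8.17 in SW1736 wt) belongs to a family of near-identical copies and is uncertain. In these genes, the culture with the higher level bears the label of the parental line with the lower one. As above, the origin of the culture labelled SW1736-PTX was not tested.

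Gene families were compared by fixed lists, each read beside the 4.09% and 3.7% of all names called higher in SW1736-PTX and 8505C-PTX. A name can pass the limit of 0.5 FPKM in 1 library alone. The counts of lists with many silent genes are thus partly set by that limit. Among matrix, protease and adhesion genes, the counts differed from list to list. Of 21 ADAM and ADAMTS proteases, 2 were called in each direction, of 26 protocadherins 3 were higher in 8505C-PTX, and of 10 laminins only LAMA4 was called. Of 10 tight junction genes, 1 was higher in SW1736-PTX. Of 17 matrix metalloproteinase and TIMP genes compared, 6 were higher in 8505C-PTX and 2 in SW1736-PTX, with a median log2 difference of -0.41. Besides MMP1 and TIMP3, MMP14, a membrane-bound metalloproteinase, was at 0.589 FPKM in SW1736-PTX and 17.3 in 8505C-PTX, with 154 in SW1736 wt and 10.7 in 8505C wt. MMP3 was at 0.666 and 4.09 FPKM.

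Of 19 integrins, the receptors that bind cells to the matrix, 5 were higher in 8505C-PTX and none in SW1736-PTX, and the median was -0.53. The collagen-binding ITGA1 was at 7.82 FPKM in SW1736-PTX and 49.0 in 8505C-PTX, with 0.516 and 7.59 in SW1736 wt and 8505C wt. ITGB4, the hemidesmosome subunit, was at 3.65 and 15.7 FPKM, ITGA4 at 1.15 and 5.09, ITGAX at 0.703 and 4.46, and ITGB8 at 0.0764 and 0.886. Of these, ITGB8 was below 0.5 FPKM in SW1736-PTX.

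Collagens were called in both directions, 5 of 25 each way, with a median of -0.06. COL11A1, a fibrillar collagen, was at 21.2 FPKM in SW1736-PTX and 1.32 in 8505C-PTX, and COL27A1 at 4.75 and 1.22. COL1A2 was at 1.67 FPKM in SW1736-PTX, listed at 0 in both 8505C libraries, and at 104 in SW1736 wt. On the other side, COL6A2 was at 28.6 and 101 FPKM, and the paired basement-membrane genes COL4A3 and COL4A4 were listed at 0 and at 0.0489 FPKM in SW1736-PTX against 2.43 and 7.74 in 8505C-PTX. Of 13 keratins compared, 2 were higher in SW1736-PTX and 3 in 8505C-PTX. The basal keratin KRT14 was at 0.170 and 12.2 FPKM and KRT17 was listed at 0 in SW1736-PTX and at 2.77 in 8505C-PTX. KRT19 fell just above the limit for comparison, at 0.535 FPKM in SW1736-PTX and 0 in 8505C-PTX, although it was at 266 in SW1736 wt.

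Of 10 ERBB receptors and ligands, 3 were higher in SW1736-PTX and none in 8505C-PTX, all 3 of them ligands. NRG1 was at 17.7 and 3.39 FPKM, with 17.9 and 5.64 in SW1736 wt and 8505C wt. AREG was at 3.18 and 0.511 FPKM, with 0.134 and 15.1 in the wt lines. EPGN was at 1.46 and 0.330 FPKM, with 0.091 and 2.10 in the wt lines. The receptor EGFR was at 23.9 and 25.3 FPKM. Of 46 TGF-beta, activin and BMP genes, 38 were not called, 6 were higher in 8505C-PTX and 2, BMP5 (1.71 and 0.363 FPKM) and INHA (0.968 and 0.257), in SW1736-PTX, with a median of -0.36. The type II receptor gene TGFBR2 was at 19.2 and 61.6 FPKM, the ligand BMP2 at 2.96 FPKM in SW1736-PTX with a log2 difference of -2.10, the inhibitory SMAD6 at 3.65 and 17.2, and LTBP2, a latent TGF-beta binding protein gene, at 0.495 and 4.11. NOTCH3 (2.73 and 16.7 FPKM) and the Notch target gene HEY2 (0.366 and 3.27) were the calls among 15 Notch genes. Of the MAPK output genes, DUSP6 (8.89 and 27.6 FPKM) and SPRY1 (5.13 and 18.7), which both restrain the pathway, were higher in 8505C-PTX and 18 of 20 were not called.

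Of 12 IGF system genes, 2 were higher in SW1736-PTX and none in 8505C-PTX. The binding protein gene IGFBP5 was at 39.3 and 6.57 FPKM and the ligand gene IGF2 at 0.733 and 0.116. Of 11 FGF genes, 1 was called in each direction. FGFBP1, which releases fibroblast growth factors from the matrix, was at 28.7 and 3.29 FPKM, and FGF13 at 0.167 and 0.835. The axon-guidance ligand SEMA3C was at 91.4 and 25.7 FPKM and the semaphorin receptor NRP2 at 2.03 and 0.0782, while SEMA6D was higher in 8505C-PTX (log2 difference -1.60). Thus semaphorin genes were called in both directions (3 and 2 of 26).

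Immune genes gave a mixed picture. Of 41 interferon-stimulated genes, 5 were higher in SW1736-PTX, among them EPSTI1 (8.19 and 2.74 FPKM) and the antiviral OAS1 (5.31 and 1.04), and only IFI27 was higher in 8505C-PTX (1.02 and 4.74). The list's median was -0.17. Of 47 chemokine and interleukin genes, IL6 (26.7 and 8.96 FPKM), IL32 (14.1 and 4.15) and IL24 (7.17 and 1.83) were higher in SW1736-PTX. The neutrophil chemokines CXCL1 (2.26 and 7.82) and CXCL8 (2.52 and 8.86), and IL6ST (13.9 and 51.4), the signaling subunit of the IL-6 receptor, were higher in 8505C-PTX. None of 16 HLA class I presentation genes was called. NFKBIZ, an atypical NF-kappaB inhibitor, was at 0.841 and 7.83 FPKM and was the only call among 14 NF-kappaB genes, with the subunit NFKB1 near equal levels (log2 difference 0.28).

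Cancer-testis antigens, germline genes that tumors can switch on, were called in 18 of 37 names, 14 higher in 8505C-PTX and 4 in SW1736-PTX. The list holds 141 names, and most were not above 0.5 FPKM in either PTX library. In such a family a name can pass the limit only through the library where it is high, so these counts are partly set by the limit. SSX1, MAGEC2 and MAGEB1 passed through 8505C-PTX alone. SSX1 was at 0.294 FPKM in SW1736-PTX and 12.7 in 8505C-PTX, MAGEC2 at 0.0231 and 4.43, and MAGEB1 was listed at 0 and at 5.12. On the other side, MAGEB2 was at 72.5 and 16.4 FPKM and XAGE2 at 16.8 and 2.17, and both were listed at 0 in SW1736 wt. Members of the SSX, GAGE and CT45 families are near-identical copies, so their single values are uncertain.

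Of 28 transporters of the ATP-binding cassette family, 5 were called, 3 higher in SW1736-PTX and 2 in 8505C-PTX. ABCG2, another drug efflux pump, was at 1.70 FPKM in SW1736-PTX and 0.375 in 8505C-PTX. ABCB8 (20.3 and 2.90 FPKM), a mitochondrial transporter, and ABCF2 (67.6 and 9.99) lie in the stretch of chromosome 7 described below. ABCB4, the phospholipid transporter beside ABCB1, was at 0.434 and 4.38 FPKM. The drug pump ABCC1 was at 17.0 and 11.9. Of 13 tubulins, only TUBB2B and TUBA4A (7.58 FPKM in SW1736-PTX, log2 difference 2.67) were called, and TUBB3, an isotype often named in taxane resistance, was at 84.0 and 96.8.

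In metabolism, SCD and the sterol enzyme gene TM7SF2 (16.3 and 46.8 FPKM) were higher in 8505C-PTX, and INSIG1, which restrains sterol synthesis, was higher in SW1736-PTX (122.8 and 41.4), as the calls among 30 lipid synthesis genes. INSIG1 lies in the stretch at the end of chromosome 7 described below. The glutathione transferases MGST1 (7.18 and 30.1) and GSTA4 (log2 difference -2.18) were higher in 8505C-PTX, as the calls among 32 NRF2 and glutathione genes. Of 21 drug-metabolizing enzymes, 4 were higher in 8505C-PTX, among them the sulfotransferase gene SULT1A1 (5.69 and 17.99 FPKM), and none in SW1736-PTX. Of 29 potassium channel genes, 5 were higher in SW1736-PTX, led in level by KCNMA1 (6.58 and 1.69), and 2 in 8505C-PTX, among them KCNJ2 (0.236 and 10.1).

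Lists that held no call included the 82 cytosolic ribosomal protein genes, the 82 respiratory chain genes, the 36 proteasome genes, the 28 mitotic genes, the 20 YAP/TEAD targets, the 16 HLA class I presentation genes, the 14 EMT regulators and markers and the 11 S100 genes. The lists of 11 to 20 genes are too short for the absence of a call to be read against the 7.79% of all names. The medians were between -0.17 and 0.15 for all of them except the proteasome (0.37) and the S100 genes (0.30).

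**Figure D3:**
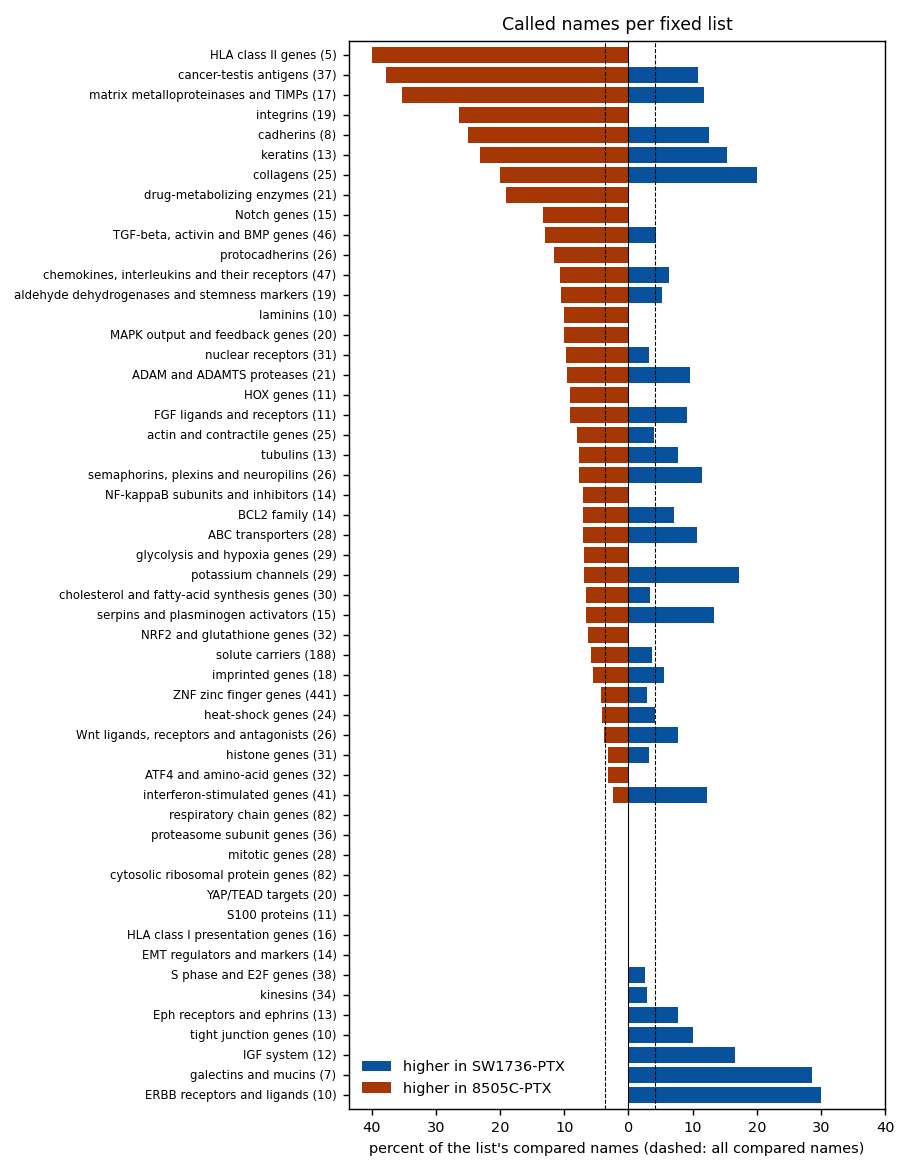
Bars give the percentage of compared names in each fixed list drawn (number in brackets, at least 5) that were called, with names higher in 8505C-PTX to the left and in SW1736-PTX to the right, and dashed lines mark 3.7% and 4.09% of all names. Integrins, with 5 of 19, extend to the left only and ERBB genes, with 3 of 10, to the right only, and the lists without bars held no call.

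Many calls were neighbors on a chromosome. Stretches were defined by 10 consecutive compared names of which at least 5 were called the same way. Overlapping runs were merged, and each was cut to begin and end at a called name. The share of called names within a stretch is thus partly set by this rule. In all, 12 stretches held 145 of the 1090 calls (13.3%). The longest was the end of the long arm of chromosome 7, from 148698841 to 159144957 (hg38), where 63 of 69 names were called higher in SW1736-PTX, with a median log2 difference of 2.197. In the wt pair the median over the same names was 0.75. Against their own parental lines, the names were higher by a median of 1.37 in SW1736-PTX and lower by 0.17 in 8505C-PTX (median -0.17). The stretch held genes of unrelated roles. EZH2, the histone methyltransferase of Polycomb, was 5.61-fold higher, with 6.42 FPKM in 8505C-PTX, and was at 43.4 and 18.7 in the parental lines. RHEB, an activator of mTOR, was at 102 and 22.2 FPKM, CDK5 at 68.1 and 12.2, and NUB1 at 102 and 15.6. NOS3, the endothelial nitric oxide synthase gene, was the only one below 0 (0.168 and 0.532 FPKM).

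A different part of chromosome 7, from 64045443 to 65982314, was higher in 8505C-PTX in 17 of 18 names, with a median of -3.06. The wt pair had a median of 1.08 there, in the opposite direction. The names were higher in 8505C-PTX than in 8505C wt by a median of 4.20, and differed by -0.19 between SW1736-PTX and SW1736 wt. Of the 18 names, 9 were zinc finger genes. ZNF680 was at 1.95 FPKM in SW1736-PTX and 38.6 in 8505C-PTX, ZNF138 at 2.95 and 39.6, and ZNF117 at 1.82 and 31.4. ERV3-1, an endogenous retroviral envelope gene, was at 3.92 and 42.4 FPKM, and GUSB, described above, lies at the end of the stretch. ZNF117 and ERV3-1 overlap, so fragments may be shared between them.

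Around ABCB1, from 86876906 to 87909541, 6 of 10 names were higher in 8505C-PTX, with a median of -1.55, and all 10 were below 0. Here both cultures were above their parental lines, by a median of 1.98 in SW1736-PTX and 4.85 in 8505C-PTX. KIAA1324L was at 15.5 FPKM in SW1736-PTX and 71.4 in 8505C-PTX, DMTF1 at 28.03 and 82.1, TMEM243 at 40.5 and 124, and SLC25A40, a mitochondrial carrier gene, at 12.5 and 60.2. The difference of ABCB1 itself, -0.72, was smaller than those of the other 9 names.

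On chromosome 22, from 37051736 to 38318084, 16 of 30 names were higher in SW1736-PTX, all 30 were above 0, and the median was 1.59. LGALS1 and RAC2, given above, lie here. KCTD17 was at 198 FPKM in SW1736-PTX and 26.8 in 8505C-PTX, with 13.1 and 16.3 in SW1736 wt and 8505C wt. C1QTNF6 was at 186 and 34.1 FPKM, with 1.73 and 3.73 in the wt lines, and the small MAF factor gene MAFF at 96.6 and 23.6. The translation initiation factor gene EIF3L (592 and 216 FPKM, log2 difference 1.45) was not called.

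On chromosome 21, from 14371116 to 17819386, all 6 compared names were called higher in 8505C-PTX, with a median of -5.70. USP25, BTG3, CXADR and C21orf91 were listed at 0 in SW1736-PTX, and HSPA13 and NRIP1 were at 0.0452 and 0.0243 FPKM. In 8505C-PTX the 6 names ranged from 1.23 FPKM for C21orf91 to 8.01 for USP25. NRIP1, a nuclear receptor corepressor, reached 18.4 and 10.6 FPKM in SW1736 wt and 8505C wt, and BTG3, an antiproliferative gene, at 24.9 and 26.7. All 6 were lowest in SW1736-PTX, and the other 3 libraries were above 1 FPKM for each of them, except that CXADR was at 0.0300 FPKM in SW1736 wt.

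**Figure D4:**
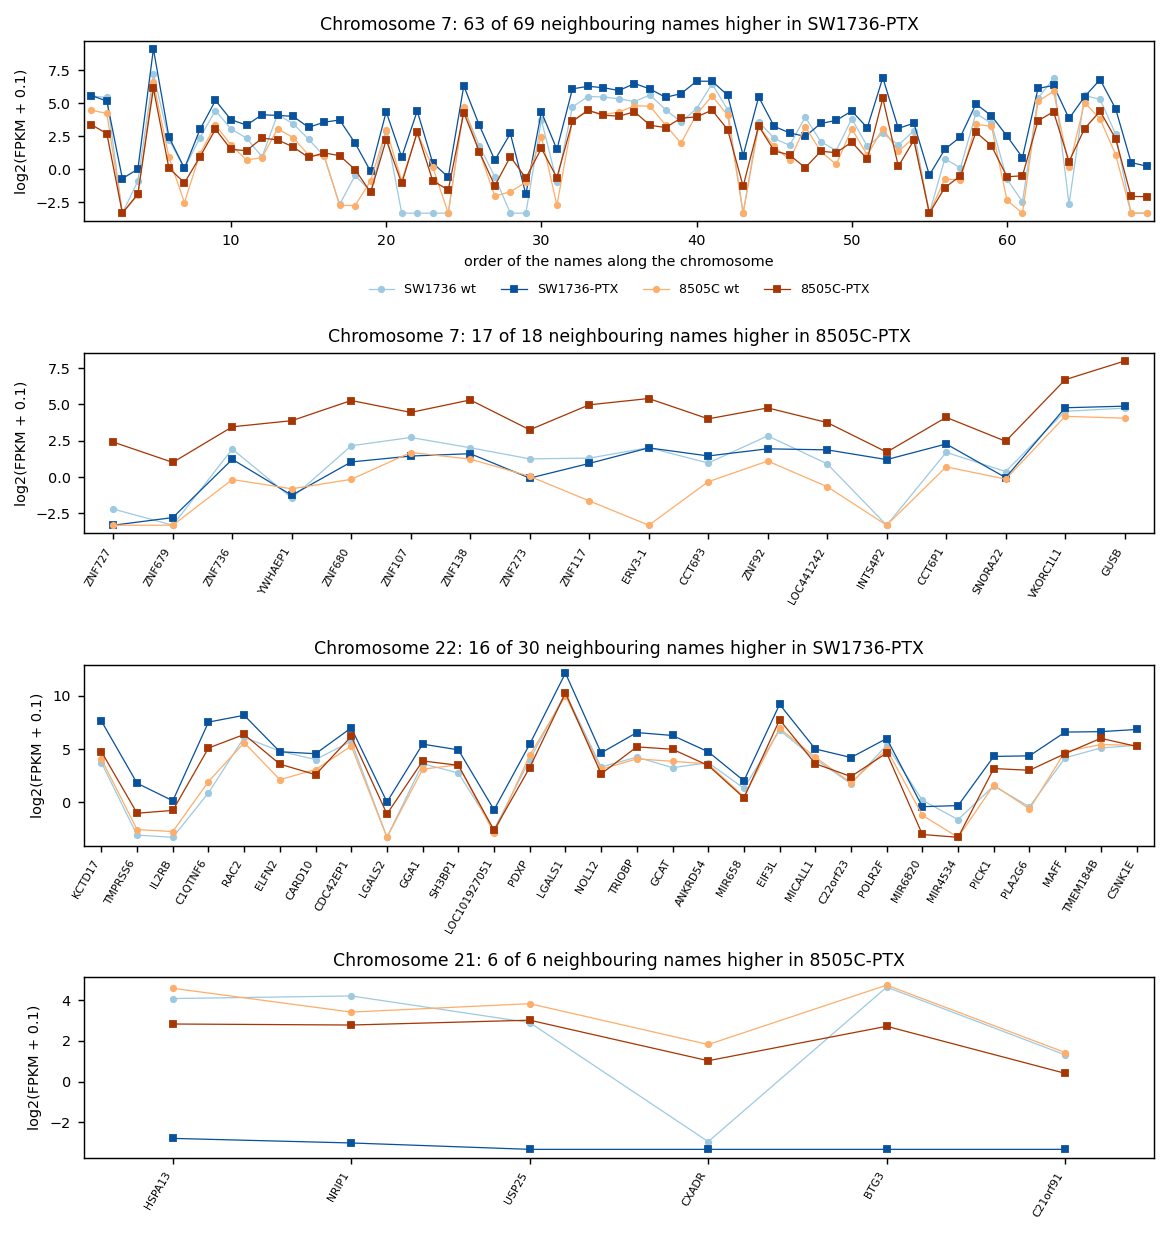
Each panel is 1 stretch of neighboring names in chromosome order, with log2(FPKM + 0.1) on the y axis and a line for each library, for the stretches of 69 and 18 names on chromosome 7, of 30 names on chromosome 22 and of 6 names on chromosome 21. 8505C-PTX stands above the other libraries in the 18 names, and SW1736-PTX is mostly the highest on chromosome 22 and is the lowest on chromosome 21.

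A cluster of pregnancy-specific glycoprotein genes on chromosome 19 (42721642 to 43205774) had 6 of 7 names higher in SW1736-PTX. These are secreted immunoglobulin-like proteins known from the placenta. PSG5 was at 38.2 FPKM in SW1736-PTX and 12.2 in 8505C-PTX, with 9.21 and 14.6 in SW1736 wt and 8505C wt, and PSG1 was at 12.1 and 2.69. The other calls were low: PSG10P, PSG3, PSG4 and PSG2 were at 1.20, 0.777, 0.646 and 0.555 FPKM in SW1736-PTX. In 8505C-PTX they were at most at 0.143 FPKM. PSG6 was not called (2.45 and 1.59 FPKM in SW1736-PTX and 8505C-PTX). The genes are closely similar copies, so that reads may be split between them. The remaining 6 stretches held 5 or 6 calls each, on chromosomes 6, 7, 14, 17 and X, and included ABCA8 with KCNJ2 on chromosome 17.

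Smaller differences extended over long parts of chromosomes, in ranges chosen after the values were seen. On chromosome 9 from 60 Mb on, 420 of 458 names (91.7%) were above 0, with a median of 0.82, whereas below 40 Mb 55.2% of names were (median 0.07). Over all names compared, 50.5% were above 0. Of the 458 names, 44 were called higher in SW1736-PTX, so most of this difference lay under the threshold. On chromosome 6 from 70 Mb on, the median was -0.67 and 40 of 293 names (13.7%) were above 0, and the wt pair had a median of -0.53 there. On chromosome 21 as a whole, the median was -0.82 and 13 of 130 names (10.0%) were above 0, while the wt median was 0.22. On chromosome 22 from 37 Mb on, 156 of 173 names were above 0 (median 0.64), and the wt median was 0.16. Below 37 Mb on chromosome 22, 26.8% of names were above 0 (median -0.23). On chromosome 19 below 20 Mb, 335 of 447 were above 0 (median 0.38), and the wt median was 0.61. Of 292 bins of 10 Mb with at least 10 names, 30 had a median beyond 0.5 in either direction, and the median absolute value over bins was 0.0720. Without the names of the 12 stretches, 945 names were called.

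**Figure D5:**
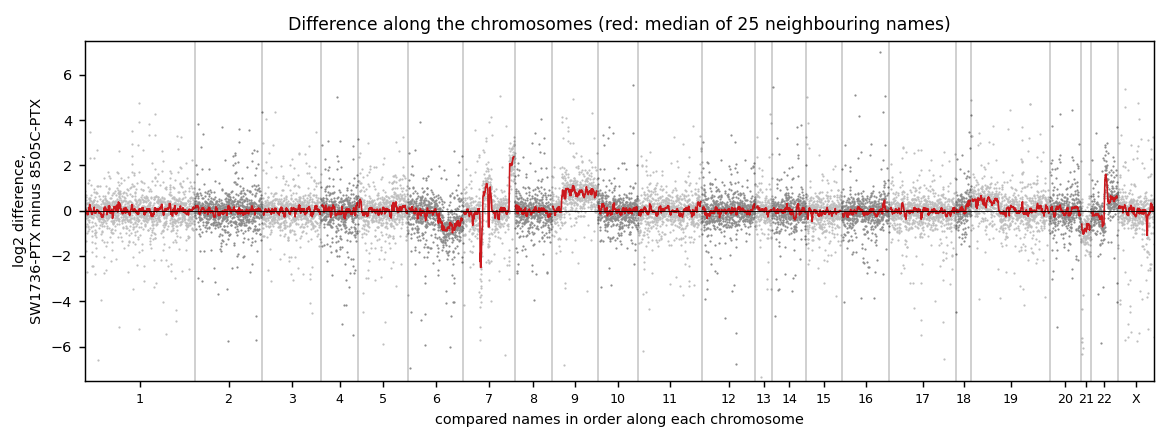
Grey points are the log2 differences of the compared names in order along each chromosome, and the red line is the median of 25 neighboring names. The line lies near 0 for most chromosomes, near 0.82 over the later part of chromosome 9 and near -0.82 on chromosome 21, and reaches its highest values at the end of chromosome 7.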

How the data were processed

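RNA of SW1736 and 8505C cells, wt and PTX, was sequenced as single-end 75 bp reads, with 1 library per group. The submitters' processing notes name bcl2fastq 2.20, StringTie and hg38, and the study's methods name Cutadapt, ERNE and STAR; the versions of StringTie, ERNE and STAR and the annotation are not given in the sources used here. The authors' StringTie tables give FPKM per gene, which the authors deposited scaled to gene length and depth. The deposited TPM values give each gene per length, relative to a fixed library total. The deposited coverage is the mean read coverage per base and served here only for depth. The tables hold no read counts.

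From these, FPKM was summed over rows of the same gene name, since repeated names lie at several places, and log2 differences were computed with a pseudocount of 0.1. Names above 0.5 FPKM in at least 1 library of a pair were compared and called beyond 1.5. No test was made, because each group has 1 library; the calling step was tested on simulated data. The members, gene lists and rules were chosen with earlier results of these data known. Genes named were the 15 largest differences in each direction above 5 FPKM, called members of 57 fixed lists (at most 8 in each direction), genes of the study's tables, called names of the stretches, the 10 most abundant calls and the 5 largest reversals in each direction; from these, examples were described, and other names were chosen after their values were seen. A list of mitochondrially encoded genes matched no name. Positions are the annotated rows on chromosomes 1 to 22 and X. Alternatives changed the pseudocount, the FPKM limit, names at 0, the unit, the centring, repeated names and the threshold. Computations ran in Python 3.11.15 with pandas 2.3.3 and NumPy 2.4.6, and plots were drawn with matplotlib 3.10.9. Promoter windows came from RefSeq. Some genes and 1 list are not reported here.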

Additional observations from a re-analysis of the deposited data

Results flagged for a closer look

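There were 1090 calls between the PTX libraries. Of these, 45 names were more than 1.5 above SW1736 wt in SW1736-PTX and more than 1.5 below 8505C wt in 8505C-PTX. Another 53 names had the opposite pattern. By label, the difference from the parental line was thus opposite in the 2 lines for these names. The origin of the culture labelled SW1736-PTX was not tested. With 1 library per group, the difference between the lines was not tested. GPR65, a proton-sensing receptor gene, was at 5.26 FPKM in SW1736-PTX and 0.873 in 8505C-PTX, with 0 and 14.7 in the parental lines. CD70, a ligand of the tumor necrosis factor family, was at 8.25 FPKM in SW1736-PTX and 2.81 in 8505C-PTX, with 203 and 0.134 in the parental lines, and so was below its parental line in the former and above it in the latter.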

How the results depend on the processing

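Each group has 1 library, so the spread between cultures is unknown and no call has a replicate check. No paired analysis was possible because the result comes from no test. The settings used gave 1090 calls in the PTX pair (572 higher in SW1736-PTX and 518 in 8505C-PTX), 2375 in the wt pair, 376 called in both pairs (149 of them in opposite directions), 207 on the fixed lists and 145 in stretches. A pseudocount of 1 gave 463 calls in the PTX pair (233 higher in SW1736-PTX and 230 in 8505C-PTX), 1183 in the wt pair, 112 called in both pairs (50 of them in opposite directions), 107 on the fixed lists and 85 in stretches. With FPKM above 0.5 in both libraries there were 513 calls in the PTX pair (282 higher in SW1736-PTX and 231 in 8505C-PTX), 896 in the wt pair, 82 called in both pairs (42 of them in opposite directions), 113 on the fixed lists and 82 in stretches. A threshold of 1 gave 2066 calls in the PTX pair (1058 higher in SW1736-PTX and 1008 in 8505C-PTX), 3836 in the wt pair, 815 called in both pairs (356 of them in opposite directions), 364 on the fixed lists and 454 in stretches. A threshold of 2 gave 668 calls in the PTX pair (336 higher in SW1736-PTX and 332 in 8505C-PTX), 1741 in the wt pair, 203 called in both pairs (69 of them in opposite directions), 127 on the fixed lists and 66 in stretches. With TPM, 576 names were called in both pairs, 235 of them in opposite directions. Leaving out the names of the stretches, chosen after seeing the data, gave 945 calls in the PTX pair. The other counts stayed within 1.5 times the value used. The 369 named genes with a value in the PTX pair include genes of the study's tables that were not called, such as ABCB1. Of the 369, 132 fell below the threshold with a pseudocount of 1 and 110 at a threshold of 2. With FPKM above 0.5 required in both libraries, only 216 of the 369 were still compared. The direction of a difference cannot change with the pseudocount, the FPKM limit or the threshold, so an unchanged direction is no support for a call. The cause of the shifts in these counts was not tested, except that fewer names are compared under a stricter FPKM limit. SFRP1 and MRC2 lie so close to the threshold that their calls depend on the settings. At this depth, small RNA names and names near 0.5 FPKM rest on few reads.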
